A study of Mus musculus with 17 samples.

Results

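Vesicle trafficking genes of the Rab, SNARE and Sec families were followed through mouse preimplantation development, from the oocyte to the blastocyst. The members were all probe sets of the Affymetrix MG-U74Av2 array whose one platform gene symbol starts with Rab followed by a digit, or with Vamp, Stx, Snap2 or Sec followed by a digit. That rule gave 107 probe sets of 79 genes, out of 12488 probe sets on the array and 10855 that carry 1 gene symbol. Of these, 87 probe sets of 70 genes were bright enough to be tested, reading above 41.1, the middle value of the whole table, on 3 or more arrays, and 20 were not. Because the symbol rule reads names, it also took in 8 probe sets of 6 genes that are no Rab, SNARE, coat or translocation factor, and these are described apart at the end.

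Rab proteins are small GTPases that sit on the membrane of a given compartment when bound to GTP and recruit the motors, tethers and fusion factors of that compartment. SNARE proteins do the fusion itself: an R-SNARE on the vesicle, usually a VAMP, zips together with syntaxins and with SNAP-25 relatives on the target membrane, and Munc18 proteins hold syntaxins ready for this. Upstream of both, the Sec61 channel brings new secretory proteins into the endoplasmic reticulum (ER), and the COPII coat of Sec13, Sec31, Sec23 and Sec24 packs them into vesicles bound for the Golgi. In mouse eggs the secretory pathway releases cortical granules at fertilisation, and in the 8-cell embryo and blastocyst it delivers membrane proteins to the apical and basolateral faces of the outer cells.

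The series holds 17 arrays of mouse (Mus musculus) material at 5 stages: oocytes (4 arrays), 1-cell embryos (3), 2-cell embryos (3), 8-cell embryos (4) and blastocysts (3). Every sample was total RNA amplified in 2 rounds of in vitro transcription, with no treatment and no genetic change named, so all comparisons are between stages. Strain, the maturation stage of the oocytes and the number of embryos per array are not in the labels, nor is it stated that the arrays of a stage came from separate collections. The p-values therefore rest on the scatter among these arrays, part or all of which may be technical.

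Array medians ran from 34.05 to 49.15 and every array had the same trimmed mean of 150.1, with 2% cut from each tail. On the log2 scale, arrays of one stage correlated at 0.93 to 0.98 over the tested probe sets, and arrays of different stages at 0.89 at most. Summed signals of the 10 oocyte marker probe sets fell from 34373 to 37333 in oocytes to 254 to 368 in blastocysts, and those of the 11 blastocyst marker probe sets were 719 to 970.1 in oocytes and 8726 to 9906 in blastocysts, each in the direction the stage labels give. Markers of oviduct and uterus (23 probe sets of 14 genes) summed to 844 to 931 in oocytes, 2234 to 3228 at the 2-cell stage and 715 to 10963 at the 8-cell stage. The highest 8-cell value was that of array 2, where Ovgp1, an oviduct secretory protein, read 6212 against 43.1, 107 and 114 on the other 8-cell arrays; member counts without that array are given below. On the 2-cell arrays Ovgp1 read 688 to 1272 and Ltf, a secretory protein of the uterus, 167 to 291, against 22.5 to 47.2 and 7.5 to 16.6 in oocytes. The other Ovgp1 probe set read 455 to 748 against 1.4 to 2.9. Dcn (68.9 to 121.8 against 26.5 to 44.9), Vim, Lum and a Col1a1 probe set also lay above the oocyte arrays, by less signal. Esr1 lay below them at some of its probe sets, and the remaining markers of this list overlapped with the oocyte arrays. All 3 of the 2-cell arrays were raised in Ovgp1 and Ltf, so the part of such material in the 2-cell changes cannot be told apart from the stage. The 9 hybridisation spike probe sets changed by 1.12, -0.23, 0.64, -1.18 and 0.35 on average in the comparisons taken in order, so that scaling to the spikes would shift every change below by the opposite amount. The 3 probe sets of 18S ribosomal RNA changed by 4.41 to 5.74 from oocyte to 1-cell embryo and by -4.23 to -2.42 at the 2-cell stage. The 1-cell arrays thus stood apart in this control, and its part in the changes into and out of that stage was not tested. All changes given here are relative to an equal trimmed mean per array.

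Most of the Rab, SNARE and Sec genes changed at some stage, as did most of the array: 78 of the 87 tested probe sets (89.7%) differed between stages by limma's moderated F test, against a background of 84.7% of all 8067 probe sets tested. The 9 without a call by the F test included Rab25, Rab4b and 1 probe set each of Rab14, Rab31, Rab3a, Rab33b, Rab6a, Sec22b and Stxbp2. Of these, Rab25 was still called in blastocyst minus oocyte, as given below. Changes between stages are given on the log2(signal + 11) scale with their standard errors, which understates the change of dim probe sets, and a member was called at an adjusted p below 0.05 by limma. As these are whole oocytes and embryos, a lower signal can come from less RNA per cell or from fewer cells that hold the RNA, and these cannot be told apart.

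From oocyte to 1-cell embryo, 25 of 87 members (28.7%) were higher and 16 (18.4%) lower, beside 17.3% and 19.8% of all probe sets tested. From the 1-cell to the 2-cell stage, 21 members (24.1%) rose and 25 (28.7%) fell, against 26% and 21.2% of all. From the 2-cell to the 8-cell stage, 21 (24.1%) rose and 32 (36.8%) fell, against 25.8% and 28.3%. The last step reversed that balance: from 8-cell embryo to blastocyst 27 members (31%) rose and 13 (14.9%) fell, against 21.8% and 20.7% of all. Over the whole course, blastocyst against oocyte, 27 members (31%) were higher and 26 (29.9%) lower, close to the 32.2% and 32.1% of all probe sets. Median changes of the members were 0.03, -0.20, -0.22, 0.14 and -0.04 in the same order, beside 0.04, 0.06, -0.06, -0.09 and -0.07 over all probe sets.

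**Figure D1:**
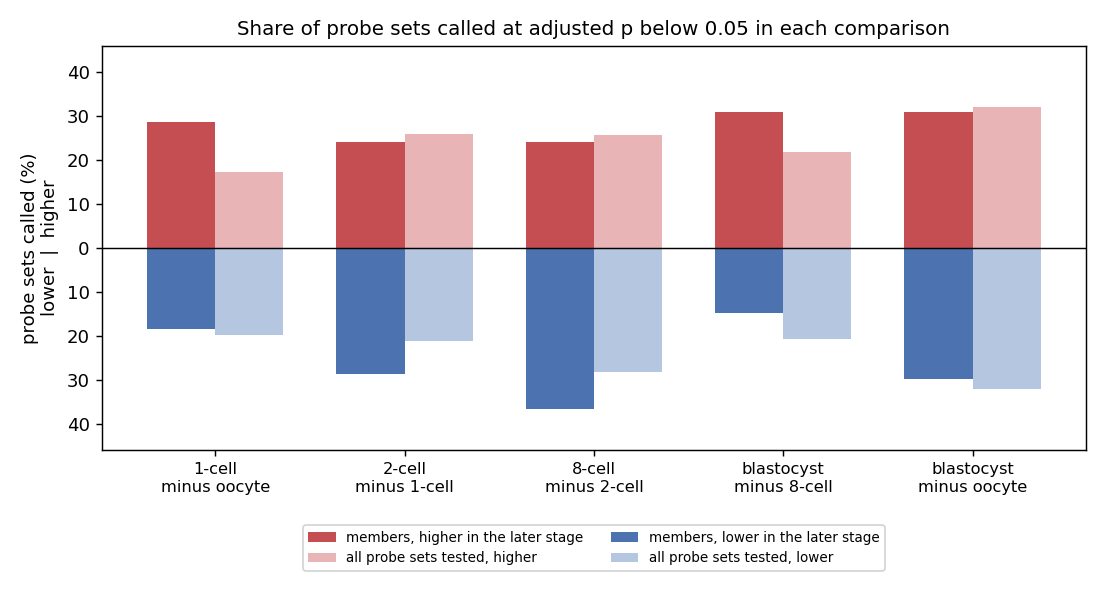
Share of probe sets called higher (upward bars) and lower (downward bars) in each of the 5 comparisons, in percent, for the 87 tested members and for all 8067 tested probe sets. Members exceed the background most among those higher at the 1-cell stage (28.7% against 17.3%, but 0 members with spike scaling), those lower at the 8-cell stage (36.8% against 28.3%) and those higher in blastocysts than in 8-cell embryos (31% against 21.8%).

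The direction of the first step rests on the scaling. As the number of embryos per array is not in the labels, neither scaling gives the RNA per oocyte or embryo. Which of them lies nearer to it was not tested. Scaled to the hybridisation spikes, none of the 87 members was called higher at the 1-cell stage by limma (0 also at an unadjusted p below 0.05) and 50 were called lower, and the 25 members called higher relative to the array mean changed by -0.59 to 0.26. All 16 members called lower at the 1-cell stage stayed so, with changes of -3.70 to -1.69. In the same way the counts from 8-cell embryo to blastocyst became 69 higher and 2 lower with spike scaling, and those from 2-cell to 8-cell became 4 higher, with all 32 falls kept. The 4 rises were those of Rab5a, Rab24, Stx3 and Vamp8 (100345_f_at), and the 2 falls in blastocysts were those of Rab10os and Rab26os, so every other member that rose at the 8-cell stage or fell from 8-cell embryo to blastocyst did so relative to the array mean and lost its call with spike scaling. At the 2-cell stage all 21 rises and 10 of 25 falls kept their call, the latter at Rab3d, Rab11a, Rab18, Sec11a, Sec13, Sec22b, Sec23a, Sec31a, Vamp3 and Vamp7. Of the members higher in blastocysts than in oocytes 12 of 27 kept it, namely Rab5a, Rab14 (104442_at), Rab20, Rab24, Rab28, Rab26os, Snap23, Stx3, Stx7, Sec23b (98944_at), Sec61a2 and Sec62 (92531_at), as did all 26 that were lower. Leaving out 8-cell array 2 gave 20 higher and 32 lower at the 8-cell stage, and 27 higher and 12 lower in blastocysts against 8-cell embryos.

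Of the 87 tested members, 29 (33.3%) had their highest mean at the 1-cell stage, against 24.2% of all tested probe sets. Fewer had it at the 2-cell stage (11, or 12.6%, against 18.1%) and at the 8-cell stage (11, or 12.6%, against 20.8%), while 15 (17.2%, against 15.8%) were highest in oocytes and 21 (24.1%, against 21.1%) in blastocysts. The 2-cell stage was the lowest point for 17 members (19.5%) and for 11.8% of all probe sets. With spike scaling these places changed: 2 members (2.3%, against 3.02% of all) were highest at the 1-cell stage and 51 (58.6%, against 54.5%) in oocytes, and 8 (9.2%, against 7.02%) were lowest at the 2-cell stage. Within 1 class the courses differed: in the map of stage means, the blocks of exocytic and endosomal Rabs, syntaxins and VAMPs each hold rows that are high early and rows that are high late.

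**Figure D2:**
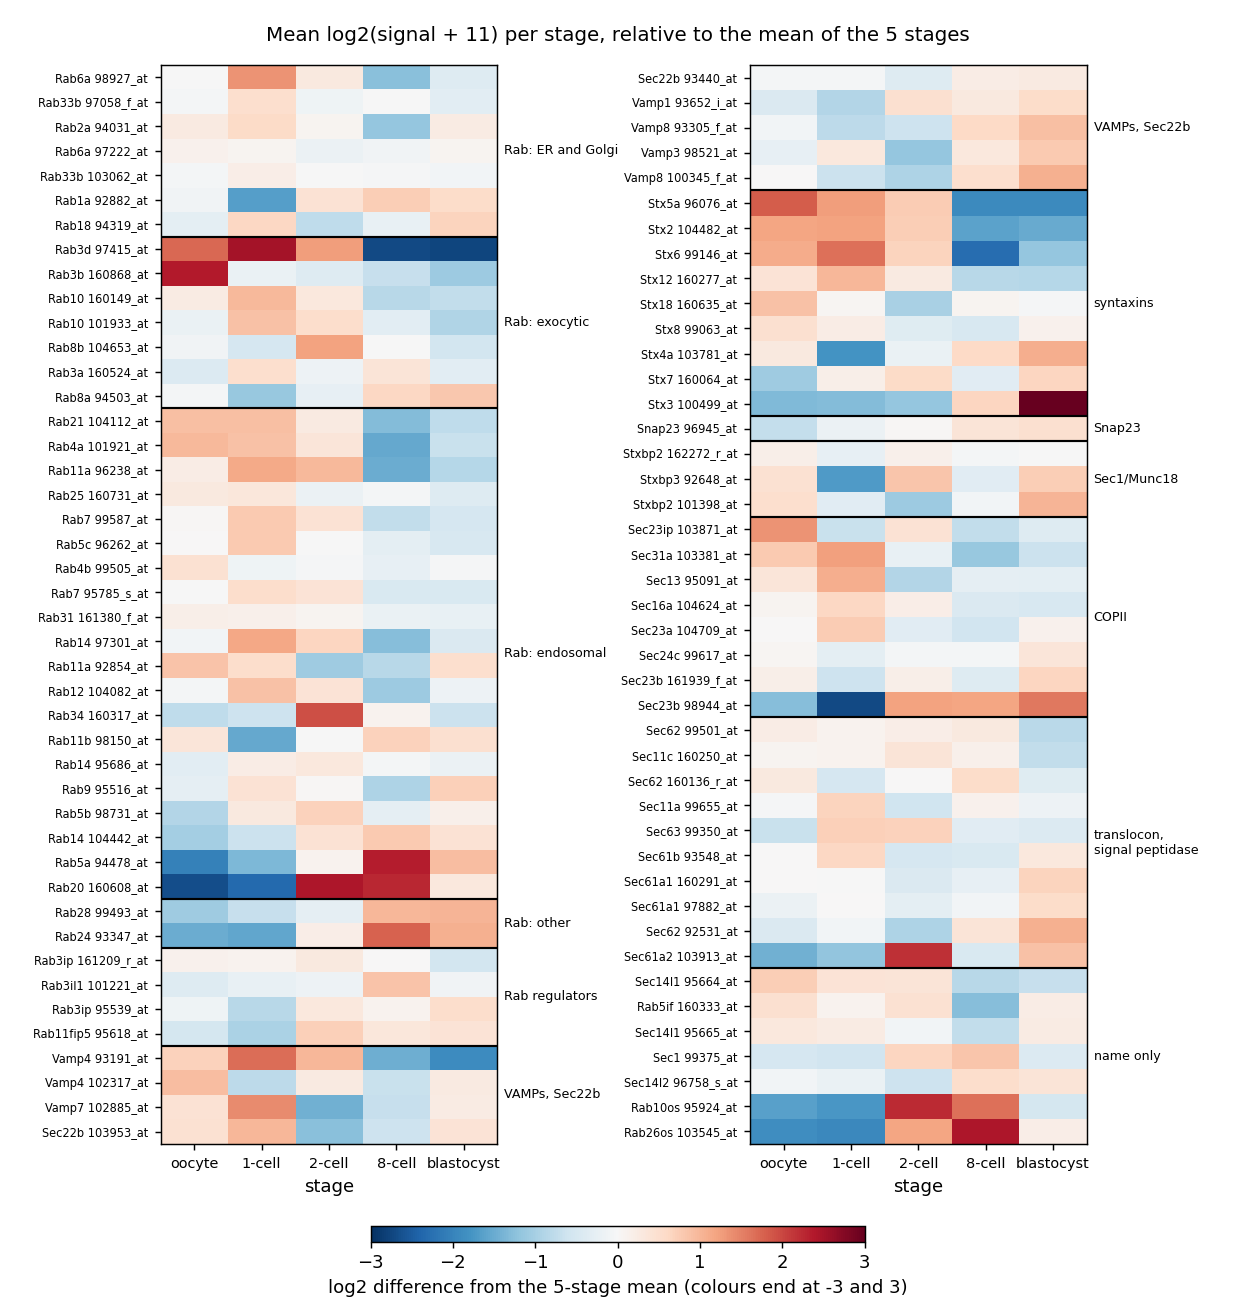
Stage means of the 87 tested probe sets, as log2(signal + 11) minus the mean of the 5 stages for that probe set, in colour, with 1 row per probe set grouped by class and 1 column per stage. Most rows of the exocytic Rabs are high before the 8-cell stage, whereas Stx3 and Vamp8 are highest in blastocysts and Rab20 and Rab5a at the 2-cell or 8-cell stage.

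Among the Rabs of exocytosis (7 tested probe sets), which bring vesicles from the trans-Golgi or from storage granules to the plasma membrane, Rab3b and Rab3d lost nearly all their signal. Rab3d, a Rab of secretory granules, had signals of 405, 424, 588 and 632 in oocytes, 789.6, 845 and 957 at the 1-cell stage and 335, 340.1 and 399 at the 2-cell stage. Rab3d then read 9.1, 10.6, 14.1 and 18.2 at the 8-cell stage and 5.1, 11.3 and 23.7 in blastocysts. No array up to the 2-cell stage read below 335 and no later array read above 23.7. Rab3d fell by 1.25 ± 0.25 (SE, adjusted p = 0.000232) from the 1-cell to the 2-cell stage and fell by 3.95 ± 0.23 (SE, adjusted p = 5.68e-12) from there to the 8-cell stage, and blastocyst minus oocyte was -4.47 ± 0.23 (SE, adjusted p = 3.55e-13). Its rise from oocyte to 1-cell embryo, 0.76 ± 0.23 (SE, adjusted p = 0.0121), lost its call on leaving out 1-cell array 1 (adjusted p = 0.0587) and was -0.35 with spike scaling.

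Rab3b, its close relative, had signals of 118, 125, 175 and 178 in oocytes, 11, 15.2 and 20.6 at the 1-cell stage and 8.8, 11.6 and 15.9 at the 2-cell stage. Rab3b then read 2.3, 6.5, 9.1 and 14.9 at the 8-cell stage and 2.8, 3 and 3.6 in blastocysts. It was high only on the 4 oocyte arrays, and the fall to the 1-cell stage was -2.58 ± 0.27 (SE, adjusted p = 1.04e-07), with no later step called. Only those arrays read above 41.1, so Rab3b was tested through the oocytes alone and this call is not independent of the filter. The 1 tested Rab3a probe set read 43.1 to 239 over all arrays and was not called by the F test. Rab3b and Rab3d left their oocyte level at different steps, Rab3b at the 1-cell stage and Rab3d mainly at the 8-cell stage.

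Rab8a and Rab10, which carry newly made proteins from the trans-Golgi to the plasma membrane, went opposite ways. Rab8a had signals of 249, 268, 324 and 356 in oocytes, 116, 133 and 156 at the 1-cell stage and 222, 271 and 289 at the 2-cell stage. Rab8a then read 429, 435, 514 and 559 at the 8-cell stage and 507, 533 and 603 in blastocysts. It fell by 1.09 ± 0.17 (SE, adjusted p = 2.23e-05) at the 1-cell stage, regained 0.90 ± 0.18 (SE, adjusted p = 0.000227) at the 2-cell stage and a further 0.86 ± 0.17 (SE, adjusted p = 0.000151) at the 8-cell stage, each step without overlap. With spike scaling the last of these was 0.22 and not called (adjusted p = 0.593). Both Rab10 probe sets fell from the 2-cell to the 8-cell stage, with changes of -0.85 ± 0.21 (SE, adjusted p = 0.00158) and -1.15 ± 0.21 (SE, adjusted p = 7.36e-05), and both were lower in blastocysts than in oocytes. One of these, at -0.70, lost its call without blastocyst array 3 (adjusted p = 0.0837). Rab8b rose by 1.71 ± 0.34 (SE, adjusted p = 0.000198) at the 2-cell stage and fell by 1.22 ± 0.31 (SE, adjusted p = 0.00224) at the 8-cell stage. Over the class, 3 probe sets rose and 2 fell at the 1-cell stage, beside 17.3% and 19.8% of all probe sets. At the 2-cell stage 2 rose and 2 fell, beside 26% and 21.2%. At the 8-cell stage 1 rose and 4 fell, beside 25.8% and 28.3%. In blastocysts none rose and 1 fell, beside 21.8% and 20.7%. With spike scaling the rises and falls in this order were 0 and 3, 2 and 1, 0 and 4, and 3 and 0. Without 1-cell array 1 the class had 1 rise at the 1-cell stage and 1 fall at the 2-cell stage, where 2-cell array 3 also left 1. The blastocyst fall was lost on omission of any of 8-cell arrays 1, 2 and 3 and blastocyst array 3.

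**Figure D3:**
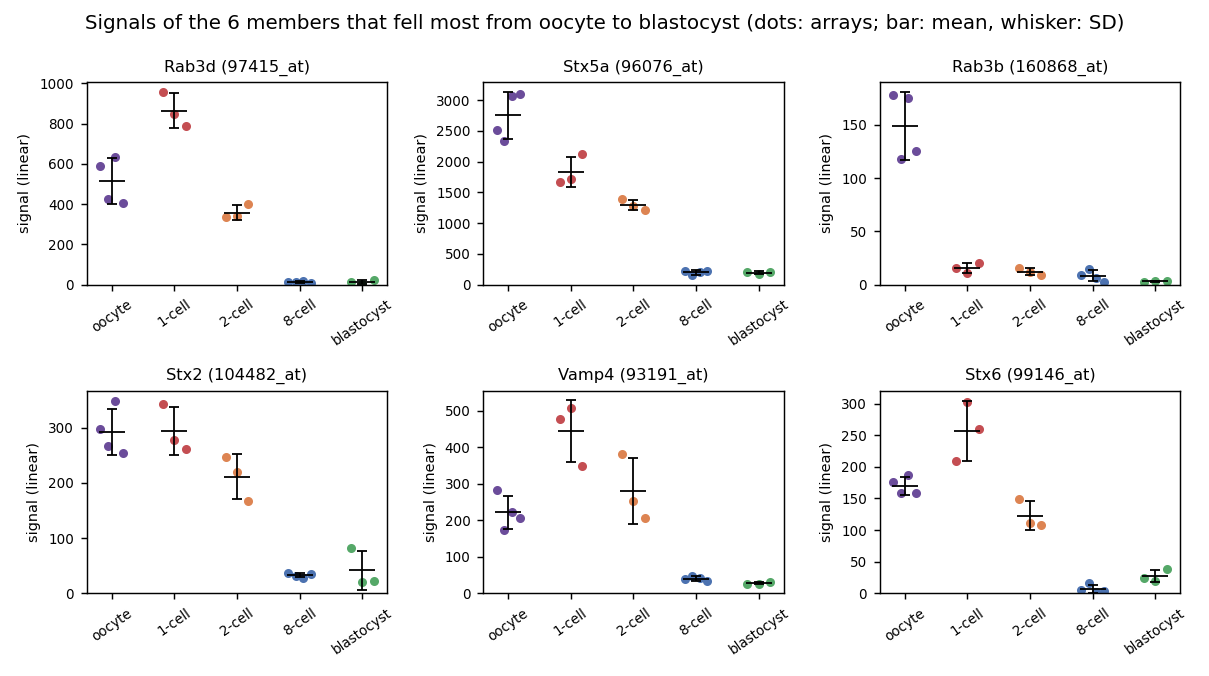
Signals (linear) of the 6 members that fell most from oocyte to blastocyst, by stage, with 1 dot per array and the mean and SD of each stage. Rab3b drops at the 1-cell stage, whereas Rab3d, Stx5a, Stx2, Stx6 and Vamp4 (93191_at) drop to their low level between the 2-cell and the 8-cell arrays without overlap.

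Of the Rabs of the ER and Golgi (7 tested probe sets), 2 were higher and none was lower in blastocysts than in oocytes. Over all probe sets these shares were 32.2% and 32.1%. With spike scaling none of the class was higher, and leaving out oocyte array 2 left 1 lower. Rab18, which acts on the ER and lipid droplets, had signals of 975, 1034, 1199.8 and 1201 in oocytes, 1728, 2206 and 2321 at the 1-cell stage and 613, 832 and 954 at the 2-cell stage. Rab18 then read 963, 1169, 1223 and 1292 at the 8-cell stage and 2083, 2109 and 2289 in blastocysts. It fell by 1.38 ± 0.17 (SE, adjusted p = 8.12e-07) to its lowest level at the 2-cell stage and rose by 0.90 ± 0.16 (SE, adjusted p = 0.000129) from 8-cell embryo to blastocyst. Rab1a, which is needed for transport from ER to Golgi, had signals of 202, 202, 234 and 278 in oocytes, 52.2, 80.5 and 81.9 at the 1-cell stage and 318, 338 and 349 at the 2-cell stage. Rab1a then read 309.8, 397, 476 and 508 at the 8-cell stage and 297, 384 and 411 in blastocysts. The dip of Rab1a at the 1-cell stage measured -1.55 ± 0.19 (SE, adjusted p = 1.57e-06) and its return at the 2-cell stage 2.09 ± 0.21 (SE, adjusted p = 2.45e-08), with no overlap at either step.

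Rab2a, which works between ER and Golgi, had signals of 412, 524, 526 and 587 in oocytes, 615, 631 and 644 at the 1-cell stage and 311, 409 and 681 at the 2-cell stage. Rab2a then read 166, 172, 174 and 210.3 at the 8-cell stage and 424, 505 and 565 in blastocysts. Its 8-cell arrays lay below all others, with a change of -1.25 ± 0.20 (SE, adjusted p = 1.71e-05) before that stage and a rise after it of 1.41 ± 0.20 (SE, adjusted p = 7.70e-06). Rab6a, a Rab of retrograde Golgi transport, had signals at 98927_at of 449, 449.7, 574 and 619 in oocytes, 1212, 1239 and 1613 at the 1-cell stage and 573, 647 and 705 at the 2-cell stage. Rab6a then read 164, 214, 223 and 263 at the 8-cell stage and 378, 394 and 414 in blastocysts. That probe set rose by 1.36 ± 0.17 (SE, adjusted p = 1.74e-06) at the 1-cell stage, which was 0.24 and not called with spike scaling, then fell by 1.06 ± 0.18 (SE, adjusted p = 4.83e-05) at the 2-cell stage, not called with spike scaling, and fell by 1.54 ± 0.17 (SE, adjusted p = 1.11e-07) at the 8-cell stage. The other Rab6a probe set, 97222_at, ran from 161 to 309.6 without any call. At the 1-cell stage 3 probe sets of the class rose and 1 fell, beside 17.3% and 19.8% of all probe sets. At the 2-cell stage 1 rose and 3 fell, beside 26% and 21.2%. In blastocysts 3 rose and none fell, beside 21.8% and 20.7%. At the 8-cell stage 1 rose and 2 fell, beside 25.8% and 28.3%. With spike scaling the rises and falls, by stage from 1-cell to blastocyst, were 0 and 4, 1 and 1, 0 and 2, and 7 and 0. Without spike scaling, the 1 rise at the 8-cell stage was lost on leaving out 2-cell array 3.

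The endosomal Rabs formed the largest class, with 20 tested probe sets. Relative to the array mean, 8 rose and 1 fell at the 1-cell stage, beside 17.3% and 19.8% of all probe sets. At the 2-cell stage 5 rose and 5 fell, beside 26% and 21.2%. At the 8-cell stage 2 rose and 10 fell, beside 25.8% and 28.3%, with a class median of -0.61 beside -0.06 over all probe sets. In blastocysts 6 rose and 3 fell against 8-cell embryos, beside 21.8% and 20.7%. With spike scaling the rises and falls in this order were 0 and 8, 5 and 1, 1 and 13, and 16 and 0. The falls at the 2-cell stage numbered 2 without 1-cell array 1, and 3 without 1-cell array 2 or 2-cell array 3. The rises at the 8-cell stage numbered 1 without any of oocyte array 3, 2-cell arrays 1 and 3 and 8-cell arrays 2, 3 and 4. The fall at the 1-cell stage was joined by a further one without 8-cell array 1 or 4.

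The early endosome Rab5 paralogues, which drive fusion of endocytic vesicles, each took a course of their own. Rab5a had signals of 100.2, 111, 140.5 and 143 in oocytes, 179.8, 182 and 258 at the 1-cell stage and 413, 575 and 789 at the 2-cell stage. Rab5a then read 2334, 2684, 2799.9 and 3486 at the 8-cell stage and 969, 984 and 1126 in blastocysts. It rose at each step up to the 8-cell stage, by 0.69 ± 0.20 (SE, adjusted p = 0.00968), 1.44 ± 0.21 (SE, adjusted p = 7.57e-06) and 2.27 ± 0.20 (SE, adjusted p = 3.86e-09), and then fell by 1.44 ± 0.20 (SE, adjusted p = 5.77e-06). The first of these lost its call on leaving out 1-cell array 2 (adjusted p = 0.0807), and with spike scaling it was -0.43 and the last -0.27, neither called. The 8-cell arrays lay above all others, and blastocysts remained above oocytes by 2.96 ± 0.20 (SE, adjusted p = 2.80e-11).

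Rab5b stayed dim, with signals of 5.7, 9.4, 10.9 and 12.5 in oocytes, 27.1, 36.3 and 44.3 at the 1-cell stage and 49.2, 49.6 and 51.8 at the 2-cell stage. Rab5b then read 8.6, 10.8, 19.5 and 65.7 at the 8-cell stage and 29.6, 30.3 and 34.2 in blastocysts. It rose by 1.18 ± 0.34 (SE, adjusted p = 0.00896) at the 1-cell stage, or by 0.06 and without a call with spike scaling. Its 65.7 at the 8-cell stage was that of array 2, the array with the high oviduct markers. Rab5c, at 183 to 545 over all arrays, rose by 0.78 ± 0.21 (SE, adjusted p = 0.00528) at the 1-cell stage (-0.34 with spike scaling) and fell by 0.79 ± 0.22 (SE, adjusted p = 0.00541) at the 2-cell stage.

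Rab20, a Rab of endosomes and phagosomes, had the largest change of any member at the 2-cell stage, with signals of 7.5, 9.5, 9.5 and 10.2 in oocytes, 11.1, 14.5 and 16.6 at the 1-cell stage and 393, 766 and 973 at the 2-cell stage. Rab20 then read 436, 510.2, 637 and 883 at the 8-cell stage and 71.9, 145 and 288 in blastocysts. No oocyte or 1-cell array read above 16.6, and no 2-cell or 8-cell array below 393. The rise was 4.76 ± 0.36 (SE, adjusted p = 3.76e-10), and the change from 8-cell embryo to blastocyst was -1.95 ± 0.34 (SE, adjusted p = 7.34e-05), or -0.78 and not called (adjusted p = 0.0618) with spike scaling. Blastocysts were above oocytes by 2.96 ± 0.34 (SE, adjusted p = 9.68e-08).

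Rab34, which positions lysosomes near the Golgi, was high at the 2-cell stage alone, with signals of 3.9, 4.9, 5.1 and 5.7 in oocytes, 2.6, 8.6 and 9.4 at the 1-cell stage and 79.8, 92.5 and 101 at the 2-cell stage. Rab34 then read 9.3, 13.1, 24.4 and 28.4 at the 8-cell stage and 5.2, 5.9 and 7.2 in blastocysts. It rose by 2.53 ± 0.29 (SE, adjusted p = 1.96e-07) and fell by 1.82 ± 0.27 (SE, adjusted p = 6.10e-06), with no overlap between the 2-cell arrays and the rest. Only the 2-cell arrays read above 41.1, so Rab34 was tested through the stage where it was high. These calls are therefore not independent of the filter.

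Several other endosomal Rabs had their lowest mean at the 8-cell stage, among them Rab9, Rab4a, Rab12, Rab21, Rab14 (97301_at) and Rab7 (99587_at). The Rab14 probe sets 104442_at and 95686_at were lowest in oocytes, and Rab7 at 95785_s_at in blastocysts. Of all 87 members 20 (23%) were lowest at the 8-cell stage, beside 19.2% of all probe sets. With spike scaling these shares were 62.1% and 55.9%. Rab14, of early endosomes and the trans-Golgi, had signals at 97301_at of 1141, 1143, 1239 and 1404 in oocytes, 2463, 2738 and 3718 at the 1-cell stage and 1737, 2050.0 and 2363 at the 2-cell stage. Rab14 then read 438, 534, 548 and 593 at the 8-cell stage and 928, 942 and 984 in blastocysts. The rise at the 1-cell stage was 1.25 ± 0.16 (SE, adjusted p = 2.15e-06), which was 0.13 and not called with spike scaling, and the fall at the 8-cell stage was -1.93 ± 0.16 (SE, adjusted p = 1.28e-09). Rab9, which returns receptors from late endosomes to the trans-Golgi, had signals of 390.4, 462, 500.3 and 586 in oocytes, 756, 769 and 822 at the 1-cell stage and 442, 599 and 789 at the 2-cell stage. Rab9 then read 216, 331, 335 and 341 at the 8-cell stage and 917, 923 and 1008 in blastocysts. It fell by 0.96 ± 0.19 (SE, adjusted p = 0.000214) at the 8-cell stage and rose by 1.62 ± 0.19 (SE, adjusted p = 6.54e-07) in blastocysts, whose 3 arrays lay above all others.

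Rab7, of late endosomes and lysosomes, fell at both of its probe sets from the 2-cell to the 8-cell stage, with changes of -1.17 ± 0.21 (SE, adjusted p = 5.83e-05) and -0.86 ± 0.23 (SE, adjusted p = 0.00350). At the same step Rab4a, of fast recycling, changed by -1.90 ± 0.19 (SE, adjusted p = 1.97e-08). Rab12 changed by -1.51 ± 0.16 (SE, adjusted p = 8.31e-08) and Rab21, which traffics integrins, by -1.56 ± 0.26 (SE, adjusted p = 3.32e-05). None of these 5 probe sets overlapped between the 2-cell and 8-cell arrays. In blastocysts Rab4a and Rab12 regained 0.88 ± 0.19 (SE, adjusted p = 0.000680) and 0.95 ± 0.16 (SE, adjusted p = 7.25e-05).

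The recycling endosome Rab11 genes differed by gene and by probe set. Rab11a at 92854_at had signals of 1886, 1914, 2157 and 2364 in oocytes, 1474, 1689 and 1824 at the 1-cell stage and 495, 528 and 607 at the 2-cell stage. Rab11a then read 528, 642, 665 and 729.8 at the 8-cell stage and 1240.5, 1752 and 2020.0 in blastocysts. It fell by 1.59 ± 0.18 (SE, adjusted p = 1.50e-07) at the 2-cell stage, stayed low at the 8-cell stage and rose by 1.35 ± 0.17 (SE, adjusted p = 1.22e-06) in blastocysts. At 96238_at, the other probe set of the gene, the fall came 1 stage later, with a change of -2.45 ± 0.25 (SE, adjusted p = 2.66e-08) at the 8-cell stage. Rab11b had signals of 70.5, 80.9, 92.8 and 168 in oocytes, 12.5, 14.2 and 31.5 at the 1-cell stage and 46.1, 76.2 and 106 at the 2-cell stage. Rab11b then read 98.1, 119, 142 and 152 at the 8-cell stage and 85.3, 111 and 128 in blastocysts. Its 1-cell arrays lay below all others, with a change of -1.89 ± 0.29 (SE, adjusted p = 2.27e-05) before that stage and a rise after it of 1.51 ± 0.31 (SE, adjusted p = 0.000343). Rab25, an epithelial relative of Rab11, was not called by the F test, at 40.2 to 132 over the 17 arrays. Its change from oocyte to blastocyst, -0.68, was called by limma (adjusted p = 0.0287). That call was lost without oocyte array 1, 2 or 4 or blastocyst array 3.

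Of the other Rabs, Rab24, which is linked to autophagy, and Rab28, which is linked to cilia, rose late. Rab24 had signals of 49.3, 50.8, 54.4 and 57 in oocytes, 41.5, 47.2 and 60.8 at the 1-cell stage and 133, 207 and 271 at the 2-cell stage. Rab24 then read 521, 586, 640.2 and 666 at the 8-cell stage and 326, 383 and 392 in blastocysts. It rose by 1.78 ± 0.21 (SE, adjusted p = 3.56e-07) and 1.56 ± 0.20 (SE, adjusted p = 7.14e-07) at the 2-cell and 8-cell stages, and blastocysts were above oocytes by 2.56 ± 0.20 (SE, adjusted p = 2.21e-10). Rab28 was at 1.8 to 18.2 up to the 2-cell stage and at 39.5 to 51.2 afterwards, a rise of 1.26 ± 0.27 (SE, adjusted p = 0.000415) at the 8-cell stage, which was 0.62 and not called with spike scaling. Neither gene's 8-cell arrays overlapped with its earlier arrays.

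Among Rab regulators (4 tested probe sets), Rab11fip5, an effector of Rab11, rose by 1.67 ± 0.24 (SE, adjusted p = 4.34e-06) at the 2-cell stage. Rab3il1, an exchange factor that loads Rabs with GTP, rose by 1.02 ± 0.17 (SE, adjusted p = 3.33e-05) at the 8-cell stage, where its arrays read 172, 185, 197 and 213 against 66.2 to 99.2 on all others. With spike scaling that rise was 0.38 and not called (adjusted p = 0.368). It fell by 0.96 ± 0.17 (SE, adjusted p = 0.000115) in blastocysts, a step that with spike scaling was a change of 0.21 without a call. Rab3ip (Rabin8), the exchange factor of Rab8, had signals at 95539_at of 91.6, 106, 116 and 118 in oocytes, 60.7, 60.8 and 61.9 at the 1-cell stage and 128, 158 and 169.9 at the 2-cell stage. Rab3ip then read 111, 115, 119 and 175 at the 8-cell stage and 144, 174 and 217 in blastocysts. Its dip at the 1-cell stage was -0.72 ± 0.19 (SE, adjusted p = 0.00537) and its rise at the 2-cell stage 1.17 ± 0.21 (SE, adjusted p = 6.64e-05). Rab8a dipped and rose at the same 2 steps, which share the 1-cell arrays. The other tested Rab3ip probe set, 161209_r_at, was called at neither step. It read 41.3 to 57.4 in oocytes, 37 to 59.4 at the 1-cell stage and 51.7 to 58.5 at the 2-cell stage.

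**Figure D4:**
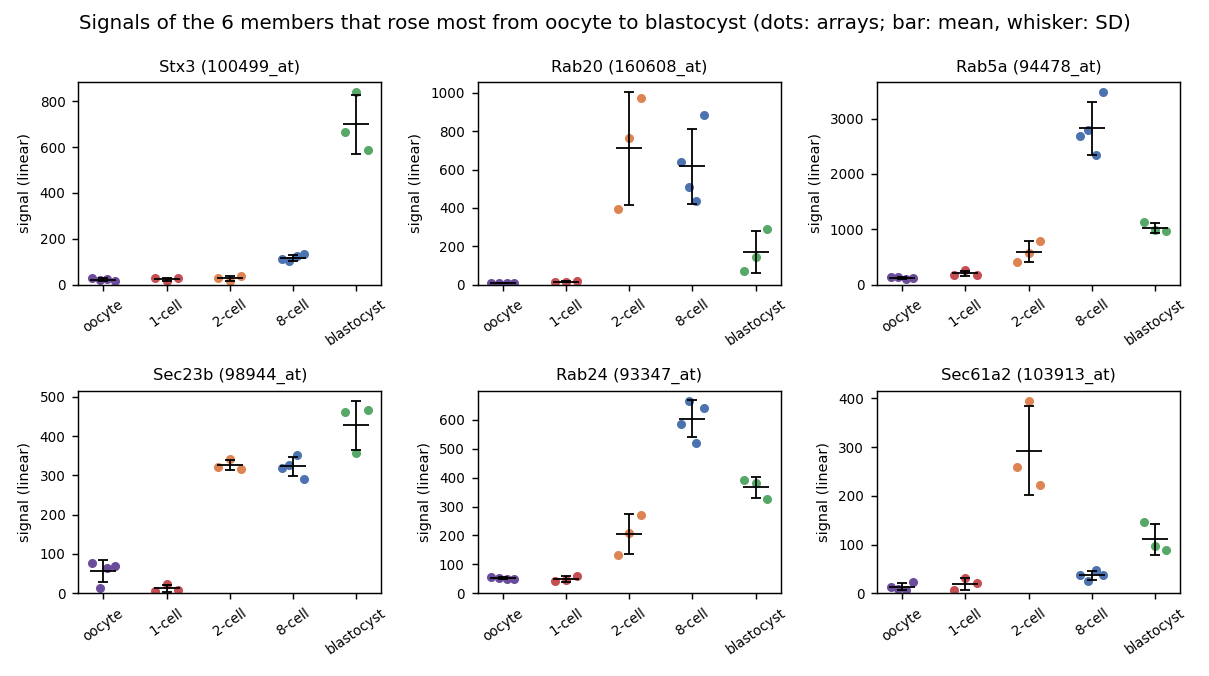
Signals (linear) of the 6 members that rose most from oocyte to blastocyst, by stage, with 1 dot per array and the mean and SD of each stage. Rab20, Sec23b (98944_at) and Sec61a2 jump at the 2-cell stage, Rab5a and Rab24 peak at the 8-cell stage, and Stx3 is highest in blastocysts.

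Among the syntaxins (9 tested probe sets), those of the plasma membrane moved in different directions. Stx3, the syntaxin of the apical membrane in epithelia, had signals at 100499_at of 16.5, 18.5, 23 and 30.3 in oocytes, 13.9, 26.7 and 28.3 at the 1-cell stage and 15.1, 27.3 and 38.1 at the 2-cell stage. Stx3 then read 102, 113, 123 and 132 at the 8-cell stage and 589, 668 and 842 in blastocysts. No array up to the 2-cell stage read above 38.1, and the 8-cell arrays in turn lay below all blastocyst arrays. Stx3 rose by 1.81 ± 0.24 (SE, adjusted p = 1.63e-06) at the 8-cell stage and by 2.46 ± 0.24 (SE, adjusted p = 5.58e-08) in blastocysts, and its rise of 4.43 ± 0.24 (SE, adjusted p = 8.13e-13) over the whole course was the largest rise of the 87 members. Only 1 of the 3 Stx3 probe sets was bright enough to be tested. Of the dim ones, 100497_at read 3.4 to 8.7 in blastocysts and 4.3 to 21.9 in oocytes. The other, 100498_g_at, read 28.9 to 76.8 in blastocysts and 5.5 to 30.2 in oocytes.

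Stx4a, the basolateral syntaxin, had signals of 82.9, 83.9, 87.6 and 99.6 in oocytes, 7.4, 7.6 and 25.3 at the 1-cell stage and 53.4, 53.5 and 73.8 at the 2-cell stage. Stx4a then read 74.9, 113, 130.4 and 136 at the 8-cell stage and 151, 159 and 177 in blastocysts. It dropped by 2.10 ± 0.25 (SE, adjusted p = 6.50e-07) at the 1-cell stage and came back by 1.61 ± 0.26 (SE, adjusted p = 2.45e-05) at the 2-cell stage, both without overlap. Stx2, also at the plasma membrane, had signals of 255, 266, 298 and 349 in oocytes, 262, 278 and 344 at the 1-cell stage and 167, 220.0 and 248 at the 2-cell stage. Stx2 then read 28.6, 31.3, 35.1 and 36.9 at the 8-cell stage and 20.3, 23 and 82.1 in blastocysts. Its 8-cell arrays lay below every earlier array with a change of -2.33 ± 0.28 (SE, adjusted p = 2.90e-07), and the difference between blastocyst and oocyte was -2.70 ± 0.28 (SE, adjusted p = 1.86e-08). The 82.1 in blastocysts was 1 array apart from 20.3 and 23.0.

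The Golgi syntaxins fell. Stx5a, which joins ER-derived vesicles to the Golgi, had signals of 2329, 2522, 3065 and 3100.2 in oocytes, 1671, 1725 and 2120.1 at the 1-cell stage and 1218, 1283 and 1387 at the 2-cell stage. Stx5a then read 149, 197, 218 and 226 at the 8-cell stage and 167, 209.8 and 211 in blastocysts. It fell by 0.58 ± 0.16 (SE, adjusted p = 0.00769) at the 1-cell stage and fell by 2.66 ± 0.16 (SE, adjusted p = 1.19e-11) at the 8-cell stage, and blastocyst minus oocyte was -3.74 ± 0.16 (SE, adjusted p = 2.24e-14). Its step from the 1-cell to the 2-cell stage, -0.50 ± 0.17 (SE, adjusted p = 0.0239), lost its call on leaving out 1-cell array 3 (adjusted p = 0.110), 2-cell array 2 (adjusted p = 0.0581) or 2-cell array 3 (adjusted p = 0.0695), and was -0.28 and not called after quantile normalisation. Stx6, of the trans-Golgi, had signals of 158, 159, 176 and 188 in oocytes, 208, 259.9 and 303 at the 1-cell stage and 108, 111 and 149 at the 2-cell stage. Stx6 then read 1.8, 4.2, 5.5 and 16.9 at the 8-cell stage and 19.7, 24.6 and 38.5 in blastocysts. It fell by 2.94 ± 0.25 (SE, adjusted p = 2.17e-09) to a low of 1.8 to 16.9 and rose by 1.13 ± 0.25 (SE, adjusted p = 0.000966) in blastocysts.

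The endosomal syntaxins split. Stx7, of late endosomes, had signals of 98.3, 125, 131 and 144 in oocytes, 279, 318 and 325 at the 1-cell stage and 356, 426 and 435 at the 2-cell stage. Stx7 then read 174, 215, 226 and 227 at the 8-cell stage and 359, 412 and 520.2 in blastocysts. It rose by 1.24 ± 0.17 (SE, adjusted p = 5.25e-06) at the 1-cell stage, which was 0.13 and not called with spike scaling, fell by 0.91 ± 0.17 (SE, adjusted p = 0.000102) at the 8-cell stage and rose by 0.98 ± 0.17 (SE, adjusted p = 7.53e-05) in blastocysts. Stx12, of recycling endosomes, fell at the 2-cell and 8-cell stages, with changes of -0.74 ± 0.20 (SE, adjusted p = 0.00399) and -1.10 ± 0.19 (SE, adjusted p = 3.23e-05), from 1205 to 1287 in 1-cell embryos to 319 to 363 in 8-cell embryos. Stx18, of the ER, fell at the 1-cell and 2-cell stages, with changes of -0.82 ± 0.20 (SE, adjusted p = 0.00244) and -1.02 ± 0.21 (SE, adjusted p = 0.000441), and rose by 1.05 ± 0.20 (SE, adjusted p = 0.000133) at the 8-cell stage; the 2-cell step (-0.79) and the 8-cell step (0.41) were not called with spike scaling. Stx8, a partner of Stx7, was called in none of the 5 comparisons. In all, 2 syntaxins rose and 3 fell at the 1-cell stage, beside 17.3% and 19.8% of all probe sets. At the 2-cell stage 1 rose and 4 fell, beside 26% and 21.2%. At the 8-cell stage 3 rose and 5 fell, beside 25.8% and 28.3%. In blastocysts 3 rose and none fell, beside 21.8% and 20.7%. With spike scaling the rises and falls in this order were 0 and 6, 1 and 0, 1 and 5, and 9 and 0. Leaving out oocyte array 4 or 1-cell array 1 left 1 syntaxin higher at the 1-cell stage.

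Snap23, the SNAP-25 relative of cells other than neurons, had signals of 30.6, 42.4, 49.1 and 49.9 in oocytes, 57.4, 72.8 and 73.9 at the 1-cell stage and 59.6, 85 and 96 at the 2-cell stage. Snap23 then read 86.3, 104, 112 and 118 at the 8-cell stage and 103, 109.9 and 125 in blastocysts. It was higher in blastocysts than in oocytes by 1.21 ± 0.21 (SE, adjusted p = 2.78e-05). Its rise at the 1-cell stage, 0.56 ± 0.21 (SE, adjusted p = 0.0391), lost its call on leaving out oocyte array 2 (adjusted p = 0.0638), oocyte array 3 (adjusted p = 0.130), 1-cell array 1 (adjusted p = 0.121) or 1-cell array 3 (adjusted p = 0.104) and was -0.56 with spike scaling. Snap25, the neuronal form, was too dim to be tested.

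Of the Munc18 proteins, Stxbp3, which binds Stx4a, had signals of 165, 222, 233 and 237 in oocytes, 38.4, 39.5 and 40 at the 1-cell stage and 229, 289.5 and 322 at the 2-cell stage. Stxbp3 then read 65.5, 107, 145 and 187 at the 8-cell stage and 215, 223 and 370.1 in blastocysts. It fell by 2.15 ± 0.26 (SE, adjusted p = 9.59e-07) at the 1-cell stage, rose by 2.52 ± 0.28 (SE, adjusted p = 1.12e-07) at the 2-cell stage, fell by 1.16 ± 0.26 (SE, adjusted p = 0.000651) and rose again by 1.07 ± 0.26 (SE, adjusted p = 0.00197), so that blastocyst and oocyte arrays overlapped. The fall and rise around the 1-cell stage were thus found at both Stxbp3 and Stx4a, at steps that share the 1-cell arrays. Stxbp2, the Munc18 of epithelial and blood cells, rose at 101398_at by 1.02 ± 0.26 (SE, adjusted p = 0.00212) and 1.10 ± 0.26 (SE, adjusted p = 0.00174) at the 8-cell and blastocyst stages, reaching 193 to 265 in blastocysts. The first of these was 0.38 and not called with spike scaling.

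Of the R-SNAREs (9 tested probe sets, Sec22b included), 5 rose and 2 fell at the 8-cell stage, beside 25.8% and 28.3% of all probe sets, and 4 rose and none fell in blastocysts, beside 21.8% and 20.7%. With spike scaling 1 rose at the 8-cell stage and 8 in blastocysts. Vamp8, of endosomes and regulated exocytosis, had signals at 100345_f_at of 484, 542, 674 and 746 in oocytes, 359, 365 and 424 at the 1-cell stage and 288, 301 and 342 at the 2-cell stage. Vamp8 then read 708, 836, 874 and 1026 at the 8-cell stage and 1075, 1224 and 1509 in blastocysts. Relative to 2-cell embryos it rose by 1.43 ± 0.17 (SE, adjusted p = 3.34e-07) at the 8-cell stage, and blastocysts were above oocytes by 1.05 ± 0.17 (SE, adjusted p = 1.50e-05), the latter 0.69 and not called with spike scaling. A smaller rise from 8-cell embryo to blastocyst, 0.55 ± 0.17 (SE, adjusted p = 0.0128), lost its call on leaving out blastocyst array 3 (adjusted p = 0.0890). The second Vamp8 probe set gave 1.23 ± 0.21 (SE, adjusted p = 3.27e-05) at the 8-cell stage.

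Vamp3, Vamp7 and Sec22b each fell at the 2-cell stage. Vamp3, of recycling endosomes, had signals of 55.8, 73.3, 91.4 and 149.8 in oocytes, 129, 134 and 144 at the 1-cell stage and 32.4, 46.2 and 47 at the 2-cell stage. Vamp3 then read 109, 126, 144 and 162 at the 8-cell stage and 138, 200.5 and 251 in blastocysts. The fall at the 2-cell stage was -1.48 ± 0.27 (SE, adjusted p = 9.98e-05) and the return 1.47 ± 0.25 (SE, adjusted p = 4.46e-05), which was 0.83 and just missed the call (adjusted p = 0.0573) with spike scaling. Vamp7, of late endosomes and lysosomes, had signals of 141, 155, 207 and 225 in oocytes, 342, 362 and 405 at the 1-cell stage and 34.2, 38.4 and 53.3 at the 2-cell stage. Vamp7 then read 70.8, 72.1, 76.8 and 89.5 at the 8-cell stage and 154, 154 and 165 in blastocysts. Its change of -2.86 ± 0.20 (SE, adjusted p = 1.28e-10) was the largest fall of any member at that step, and it rose by 0.75 ± 0.19 (SE, adjusted p = 0.00191) and 0.94 ± 0.19 (SE, adjusted p = 0.000373) at the later ones.

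Sec22b, the R-SNARE between ER and Golgi, had signals at 103953_at of 114, 124, 125 and 161 in oocytes, 187, 199.5 and 202 at the 1-cell stage and 29.5, 31.3 and 37.9 at the 2-cell stage. Sec22b then read 39.1, 51.9, 67.9 and 72.4 at the 8-cell stage and 120.0, 122 and 138 in blastocysts. It fell by 2.24 ± 0.21 (SE, adjusted p = 1.20e-08) at the 2-cell stage and rose by 1.03 ± 0.20 (SE, adjusted p = 0.000241) in blastocysts, and the second Sec22b probe set, at 22.0 to 83.7, was not called by the F test. Vamp1, at 93652_i_at, was dim, with 8-cell signals of 11.3, 14.9, 35.6 and 112, the highest of which was again array 2. It rose by 1.36 ± 0.44 (SE, adjusted p = 0.0146) at the 2-cell stage. Vamp2 and Vamp5 were not bright enough to be tested.

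In the COPII coat and its ER exit sites (8 tested probe sets), the paralogues Sec23a and Sec23b followed different courses. Sec23b, an inner coat subunit, had signals at 98944_at of 13.8, 65.4, 70.5 and 76.8 in oocytes, 5.8, 8.4 and 23.5 at the 1-cell stage and 317, 322 and 341 at the 2-cell stage. Sec23b then read 291, 319.9, 327 and 353 at the 8-cell stage and 356, 462 and 466 in blastocysts. Its rise of 3.91 ± 0.35 (SE, adjusted p = 4.26e-09) at the 2-cell stage left no later array below 291, and blastocysts were above oocytes by 2.84 ± 0.32 (SE, adjusted p = 9.58e-08). Sec23a, at 104709_at, had its highest signals at the 1-cell stage (875 to 1074), fell by 1.10 ± 0.18 (SE, adjusted p = 2.59e-05) at the 2-cell stage and rose by 0.72 ± 0.17 (SE, adjusted p = 0.00152) in blastocysts. The second Sec23b probe set, 161939_f_at, read 9.0 to 64.8 and gave no call at the 2-cell stage.

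Sec13, an outer coat subunit that also serves at the nuclear pore, had signals of 1293, 1322, 1337 and 1422 in oocytes, 2088, 2239.6 and 2370.0 at the 1-cell stage and 458, 594 and 677 at the 2-cell stage. Sec13 then read 810.2, 887, 902 and 904 at the 8-cell stage and 833, 851 and 871 in blastocysts. Its fall at the 2-cell stage was -1.95 ± 0.15 (SE, adjusted p = 3.27e-10). Sec31a, its partner in the outer coat, changed at the same step by -1.47 ± 0.23 (SE, adjusted p = 1.69e-05) and at the 8-cell stage by -0.91 ± 0.22 (SE, adjusted p = 0.00117), from 414 to 429 in 1-cell embryos to 61.3 to 85.4 in 8-cell embryos. Sec23ip, a protein of ER exit sites, had signals of 386, 401, 426 and 571 in oocytes, 86.6, 101 and 114 at the 1-cell stage and 197, 241 and 256 at the 2-cell stage. Sec23ip then read 50.1, 104, 119 and 126 at the 8-cell stage and 105, 134 and 137 in blastocysts. It fell by 2.03 ± 0.23 (SE, adjusted p = 5.53e-07) at the 1-cell stage, and blastocyst minus oocyte was -1.74 ± 0.23 (SE, adjusted p = 1.10e-06). Sec24c, a cargo-binding subunit, read 220.0 to 427 throughout. Over the class 3 rose and 2 fell at the 1-cell stage, beside 17.3% and 19.8% of all probe sets. At the 2-cell stage 2 rose and 3 fell, beside 26% and 21.2%. At the 8-cell stage 1 rose and 3 fell, beside 25.8% and 28.3%, and in blastocysts 3 rose and none fell, beside 21.8% and 20.7%. The rises in blastocysts numbered 1 without any of oocyte array 1, 2-cell array 2 and 8-cell array 3, and 8 with spike scaling.

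At the ER translocon (10 tested probe sets), the channel subunit genes Sec61a1 and Sec61a2 again differed as paralogues. Sec61a2 had signals of 7.4, 9.5, 13.1 and 23.3 in oocytes, 7.1, 20.2 and 30.5 at the 1-cell stage and 222, 259 and 395 at the 2-cell stage. Sec61a2 then read 25.7, 36.6, 36.8 and 47.3 at the 8-cell stage and 89.2, 96.8 and 147 in blastocysts. It rose by 3.36 ± 0.32 (SE, adjusted p = 1.25e-08) at the 2-cell stage, fell by 2.65 ± 0.30 (SE, adjusted p = 1.39e-07) at the 8-cell stage and rose by 1.35 ± 0.30 (SE, adjusted p = 0.000940) in blastocysts. Sec61a1, at 160291_at, had signals of 947, 1125, 1128 and 1165 in oocytes, 914, 946 and 1406 at the 1-cell stage and 742, 780.1 and 831 at the 2-cell stage. Sec61a1 then read 833, 847, 900.3 and 1040.3 at the 8-cell stage and 1629.7, 1706 and 1804 in blastocysts. Both Sec61a1 probe sets rose in blastocysts, by 0.92 ± 0.15 (SE, adjusted p = 4.98e-05) and 0.63 ± 0.14 (SE, adjusted p = 0.000785), and no 8-cell array overlapped with a blastocyst array.

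Sec63, which works with Sec62 at the channel, had signals of 17.9, 23.7, 24.1 and 24.1 in oocytes, 48.4, 55.6 and 152 at the 1-cell stage and 62.4, 78.6 and 84.7 at the 2-cell stage. Sec63 then read 23.7, 30.9, 32.7 and 36 at the 8-cell stage and 17.2, 32.9 and 40.5 in blastocysts. It rose by 1.37 ± 0.30 (SE, adjusted p = 0.000869) at the 1-cell stage, which was 0.26 and not called with spike scaling, and fell by 1.04 ± 0.30 (SE, adjusted p = 0.00526) at the 8-cell stage. Sec11a, a catalytic subunit of signal peptidase, had signals of 1237, 1267, 1591 and 2016 in oocytes, 2269, 2409.9 and 2737 at the 1-cell stage and 855, 1043 and 1146 at the 2-cell stage. Sec11a then read 1479, 1555, 1604 and 2163 at the 8-cell stage and 977, 1580.0 and 1666 in blastocysts. It fell by 1.28 ± 0.21 (SE, adjusted p = 3.38e-05) at the 2-cell stage and rose by 0.73 ± 0.20 (SE, adjusted p = 0.00384) at the 8-cell stage. Sec11c, the other catalytic subunit, fell by 0.89 ± 0.21 (SE, adjusted p = 0.00132) in blastocysts, a step that with spike scaling was a change of 0.28 without a call. At the blastocyst stage 4 of 10 probe sets of the translocon rose and 3 fell, beside 21.8% and 20.7% of all. The 3 that fell were Sec11c and the Sec62 probe sets 160136_r_at and 99501_at, and with spike scaling their changes were 0.28, 0.26 and 0.08, with 7 probe sets of the class higher and none lower.

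For 15 member genes with more than 1 tested probe set, the probe sets could be set against each other, and for 4 of these genes they were called in opposite directions in a comparison. Vamp4, an R-SNARE of the trans-Golgi, had signals at 102317_at of 173, 174, 182 and 200.1 in oocytes, 37.9, 42.9 and 68.8 at the 1-cell stage and 75.3, 126 and 145 at the 2-cell stage. Vamp4 then read 48.7, 50.8, 54.7 and 59.1 at the 8-cell stage and 94.1, 118 and 124 in blastocysts. At 93191_at they were 174, 206, 222 and 284 in oocytes, 348, 477 and 508 at the 1-cell stage and 205, 254 and 381 at the 2-cell stage. This probe set then read 33.2, 39.7, 42.4 and 46.8 at the 8-cell stage and 25, 26.3 and 31.3 in blastocysts. The first probe set fell by 1.70 ± 0.22 (SE, adjusted p = 2.27e-06) at the 1-cell stage while the second rose by 0.97 ± 0.22 (SE, adjusted p = 0.00107), or changed by -0.14 with spike scaling. At the 2-cell stage they gave 1.04 ± 0.23 (SE, adjusted p = 0.000751) and -0.67 ± 0.23 (SE, adjusted p = 0.0200), the second of which lost its call on leaving out 1-cell array 1 (adjusted p = 0.0672), 1-cell array 2 (adjusted p = 0.0894), 2-cell array 2 (adjusted p = 0.0635) or 2-cell array 3 (adjusted p = 0.122). Both fell at the 8-cell stage, with changes of -0.93 ± 0.22 (SE, adjusted p = 0.000986) and -2.46 ± 0.22 (SE, adjusted p = 3.25e-09), so a direction for Vamp4 can be given at that step and not at the earlier ones.

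Rab14 at 104442_at, a probe set that never read above 76.3, rose at the 2-cell stage by 1.07 ± 0.32 (SE, adjusted p = 0.00760) where 97301_at fell by 0.52 ± 0.17 (SE, adjusted p = 0.0149). Both calls depended on single arrays: the first was lost without 1-cell array 3 (adjusted p = 0.0561), and the second without 1-cell array 1 (adjusted p = 0.114) or 2-cell array 3 (adjusted p = 0.0766) and after quantile normalisation (-0.27). For Rab3ip, blastocyst minus oocyte was 0.66 ± 0.19 (SE, adjusted p = 0.00539) at 95539_at and -0.68 ± 0.22 (SE, adjusted p = 0.00953) at 161209_r_at, the latter lost without blastocyst array 3 (adjusted p = 0.0628). Sec62 gave 1.50 ± 0.33 (SE, adjusted p = 0.000403) at 92531_at and -1.03 ± 0.24 (SE, adjusted p = 0.000810) at 99501_at, with -0.66 at the third probe set. Signals of Sec62 at 92531_at were 16.1, 19.3, 29.7 and 29.8 in oocytes, 30.6, 33.8 and 33.9 at the 1-cell stage and 7.9, 13.5 and 21.1 at the 2-cell stage. Sec62 then read 19.8, 50.8, 56.6 and 92.7 at the 8-cell stage and 60.5, 85.5 and 119 in blastocysts. At 99501_at they were 57.2, 63.9, 80.2 and 98.4 in oocytes, 53.4, 71.3 and 81.4 at the 1-cell stage and 68.4, 69.8 and 78.6 at the 2-cell stage. The latter then read 59.4, 65.4, 83.9 and 111 at the 8-cell stage and 21.3, 32.3 and 40.1 in blastocysts. Blastocyst and oocyte arrays did not overlap at either of these, and the probe sets moved apart.

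**Figure D5:**
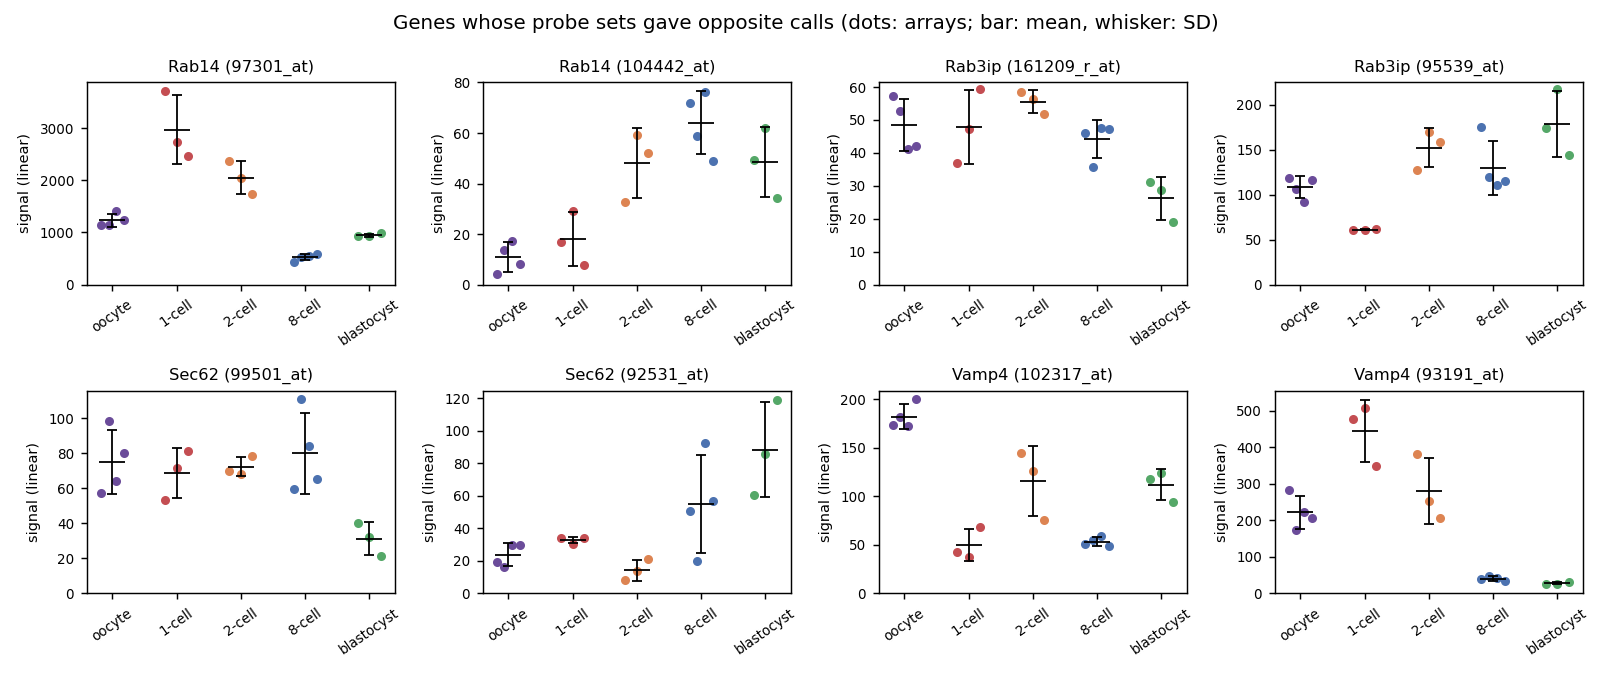
Signals (linear) of the 4 genes whose probe sets gave opposite calls, by stage, 2 probe sets per gene, with 1 dot per array and the mean and SD of each stage. The Vamp4 probe sets separate at the 1-cell stage, where 102317_at reads 37.9 to 68.8 and 93191_at 348 to 507.5.

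Some members rose at the 1-cell stage and fell at the 8-cell stage, at steps that share no array. Of the 25 members higher at the 1-cell stage than in oocytes, 15 (60% of these, and 46.9% of the 32 later falls) were lower at the 8-cell than at the 2-cell stage. Over all tested probe sets, 703 of 1397 did so (50.3% of the rises and 30.8% of the falls). The 15 probe sets were those of Rab5b, Rab7, Rab9, Rab11a, Rab12, Rab14, Rab6a, Rab3d, both of Rab10, and Sec16a, Sec63, Stx7, Stx12 and Vamp4 (93191_at). Not all were highest early: Rab9 and Stx7 had their highest mean in blastocysts, and Rab5b at the 2-cell stage. In the opposite order, 7 of the 16 members lower at the 1-cell stage were higher at the 8-cell stage (43.8%, and 33.3% of the 21 later rises), beside 42.2% and 32.4% over all probe sets. None of these 25 rises was called with spike scaling. Leaving out 1 array gave 11 to 17 probe sets with both calls, the lowest without 1-cell array 1.

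The upstream sequences of the members with the largest rises and falls over the course are shown because members that moved oppositely can be compared in their promoters. Stx3 and Rab20 rose most, and Rab3d and Stx5a fell most, from oocyte to blastocyst. Each is the stretch of 250 bases before the annotated start, read 5′ to 3′ on the gene's strand, from RefSeq annotation of GRCm38.p6. Capitals mark matches on either strand to any of 5 motifs. These are the E-box, spelled CANNTG, which basic helix-loop-helix factors bind, and the GC box, spelled GGGCGG, which Sp1 and its relatives bind. The CCAAT box was searched by the 5 letters of its name and the TATA box as TATAAA, and the motif of the TEAD factors, which act with YAP in the trophectoderm, was searched as GGAATG. Matches of different motifs may overlap.
Stx3 upstream: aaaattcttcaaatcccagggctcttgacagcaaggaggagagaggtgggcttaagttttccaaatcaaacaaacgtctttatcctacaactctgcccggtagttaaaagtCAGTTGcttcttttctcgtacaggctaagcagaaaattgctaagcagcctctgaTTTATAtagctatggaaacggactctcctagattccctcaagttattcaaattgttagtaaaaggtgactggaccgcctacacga
Rab20 upstream: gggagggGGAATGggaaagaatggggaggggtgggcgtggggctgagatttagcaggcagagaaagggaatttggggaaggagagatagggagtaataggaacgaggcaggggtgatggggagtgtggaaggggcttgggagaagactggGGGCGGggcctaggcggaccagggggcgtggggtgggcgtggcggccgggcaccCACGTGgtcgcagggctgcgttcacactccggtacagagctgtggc
Rab3d upstream: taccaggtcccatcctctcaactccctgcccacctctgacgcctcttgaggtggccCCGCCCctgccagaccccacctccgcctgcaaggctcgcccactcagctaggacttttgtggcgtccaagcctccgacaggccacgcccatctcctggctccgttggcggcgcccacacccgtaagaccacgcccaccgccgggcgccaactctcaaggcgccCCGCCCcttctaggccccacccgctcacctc
Stx5a upstream: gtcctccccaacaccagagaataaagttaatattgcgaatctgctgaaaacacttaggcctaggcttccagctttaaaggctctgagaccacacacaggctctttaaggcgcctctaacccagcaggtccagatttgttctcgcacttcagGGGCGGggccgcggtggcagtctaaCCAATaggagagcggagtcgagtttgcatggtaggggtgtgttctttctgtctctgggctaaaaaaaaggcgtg

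The Stx3 stretch lies at chr19:11819404-11819653 on the minus strand and has 1 E-box, 1 TATA box and 6 CpG pairs. The Rab20 stretch, at chr8:11478641-11478890 on the minus strand, has 1 E-box, 1 GC box, 1 TEAD motif and 12 CpG pairs. The Rab3d stretch, at chr9:21918184-21918433 on the minus strand, has 2 GC boxes and 18 CpG pairs. The Stx5a stretch, at chr19:8741174-8741423 on the plus strand and the first of 2 listed starts, has 1 GC box, 1 CCAAT box and 9 CpG pairs.

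For 70 of the 79 member genes such a stretch was listed. A GC box was found in 11 of 20 genes that were higher in blastocysts than in oocytes (55%), in 15 of 19 that were lower (78.9%) and in 32.9% of all 27025 genes listed. An E-box, by contrast, was in 60%, 52.6% and 66%, a CCAAT box in 55%, 36.8% and 34.5%, a TATA box in 10%, 10.5% and 13%, and a TEAD motif in 15%, 21.1% and 12.6%. Median CpG counts were 15 in the higher genes, 17 in the lower genes and 6 over all. The 27025 genes were not limited to those on the array or bright enough to be tested. They are thus no matched background for the members, and the differences cannot be credited to trafficking genes. These letter matches are descriptions and were not tested, and the 2 genes whose probe sets disagreed were left out.

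The rest of the trafficking pathway was read from a list of coat, adaptor, tether, fusion and Rab accessory genes, of which 105 of 134 probe sets (97 genes) were tested. At the 1-cell stage 16 rose (15.2%) and 23 fell (21.9%), beside 17.3% and 19.8% of all probe sets. At the 2-cell stage 25 rose (23.8%) and 27 fell (25.7%), beside 26% and 21.2%. At the 8-cell stage 26 rose (24.8%) and 31 fell (29.5%), beside 25.8% and 28.3%. In blastocysts 32 rose (30.5%) and 9 fell (8.57%) against 8-cell embryos, beside 21.8% and 20.7%. Against oocytes 30 were higher (28.6%) and 38 lower (36.2%) in blastocysts, beside 32.2% and 32.1%.

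Among the other SNAREs and fusion factors, 10 of 15 probe sets fell at the 1-cell stage and 1 rose, with a median of -0.84. Over all probe sets 19.8% were lower and 17.3% higher at that step. Napa (alpha-SNAP), which recruits NSF to spent SNARE complexes, changed by -2.82 ± 0.26 (SE, adjusted p = 2.10e-08), and the ER SNARE Use1 by -3.04 ± 0.19 (SE, adjusted p = 6.02e-11) and -2.91 ± 0.19 (SE, adjusted p = 1.10e-10) at its probe sets. Nsf itself was lower in blastocysts than in oocytes, at -1.96 ± 0.33 (SE, adjusted p = 2.05e-05). Of 9 probe sets of Rab accessory genes, 2 rose and 4 fell at the 8-cell stage, beside 25.8% and 28.3% of all. The rises were those of Rabggta and Rabggtb, the subunits of the enzyme that attaches lipid to Rabs. They measured 2.02 ± 0.32 (SE, adjusted p = 1.52e-05) and 2.79 ± 0.25 (SE, adjusted p = 3.91e-09).

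The list of COPI coat genes and small GTPases of the ARF family, which also holds the COPII GTPases Sar1a and Sar1b, rose at 11 of 25 probe sets in blastocysts and fell at 3, beside 21.8% and 20.7% of all. With spike scaling 20 rose and none fell, and leaving out 8-cell array 1, blastocyst array 1 or blastocyst array 3 left 1 fall. Copb1, a COPI subunit, had fallen by 2.84 ± 0.22 (SE, adjusted p = 6.87e-10) at the 2-cell stage. Arf4, a small GTPase of the Golgi, was higher in blastocysts than in oocytes by 3.78 ± 0.32 (SE, adjusted p = 9.19e-10). Tethers rose at 5 of 10 probe sets in blastocysts, with none falling, beside 21.8% and 20.7% of all. At both the 2-cell and the 8-cell stage 2 of the 10 had risen and 5 had fallen. Over all probe sets those shares were 26% and 21.2% at the 2-cell stage and 25.8% and 28.3% at the 8-cell stage. With spike scaling 10 tethers rose in blastocysts, and 2 fell at the 2-cell stage and 6 at the 8-cell stage. Of 25 probe sets of clathrin and its adaptors, 2 rose and 2 fell at the 1-cell stage, beside 17.3% and 19.8% of all, and with spike scaling none rose and 18 fell. The 2 rises became 0 or 1 without oocyte array 1, 3 or 4 or 1-cell array 2 or 3. Cltc, the clathrin heavy chain, rose by 1.52 ± 0.18 (SE, adjusted p = 5.41e-07) in blastocysts.

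The 20 untested probe sets included the only ones for Sec24b, Rab17, Rab35, Rab23, Rab33a, Snap25, Stx1a and Vamp5, and both for Vamp2. Of these genes, Snap25, Stx1a and Vamp2 form the SNARE complex of neuronal synapses. A dim probe set gives no evidence that the gene is off, since the deposited table holds no detection calls.

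Finally, 7 probe sets of genes that share only the name pattern were tested. Rab10os and Rab26os, transcripts named for lying opposite Rab10 and Rab26, rose at the 2-cell stage. Rab10os had signals of 16.9, 19, 20 and 24.8 in oocytes, 7.1, 17.3 and 33.9 at the 1-cell stage and 386, 388 and 575 at the 2-cell stage. Rab10os then read 267, 268, 291 and 336 at the 8-cell stage and 49.4, 53.6 and 63.9 in blastocysts. Rab26os had signals of 1.1, 3.4, 3.7 and 9.7 in oocytes, 1.4, 3.9 and 5.3 at the 1-cell stage and 105, 109 and 135 at the 2-cell stage. Rab26os then read 239, 269, 278 and 387 at the 8-cell stage and 37.4, 54.6 and 71.2 in blastocysts. Both were high at the 2-cell and 8-cell stages alone, with rises of 3.99 ± 0.26 (SE, adjusted p = 4.52e-11) and 3.13 ± 0.26 (SE, adjusted p = 2.16e-09) and changes in blastocysts of -2.18 ± 0.25 (SE, adjusted p = 3.88e-07) and -2.23 ± 0.25 (SE, adjusted p = 2.99e-07). From the 1-cell to the 2-cell stage the Rab10 probe sets changed by -0.36 and -0.65.

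Rab5if, named as a Rab5 interacting factor, had signals of 851, 1333, 1356 and 1377 in oocytes, 888, 923 and 973 at the 1-cell stage and 872, 1342 and 1407 at the 2-cell stage. Rab5if then read 230.3, 340.3, 408 and 455 at the 8-cell stage and 837, 959 and 1267 in blastocysts. It fell by 1.73 ± 0.22 (SE, adjusted p = 1.00e-06) at the 8-cell stage and rose by 1.50 ± 0.22 (SE, adjusted p = 1.35e-05) in blastocysts. Sec1, a fucosyltransferase gene, had signals of 12.7, 21.5, 21.5 and 30.4 in oocytes, 18.5, 19.2 and 19.7 at the 1-cell stage and 44.4, 65.2 and 72.6 at the 2-cell stage. Sec1 then read 52.3, 53.7, 90.3 and 91.5 at the 8-cell stage and 20.1, 23.1 and 26.3 in blastocysts. It rose by 1.23 ± 0.27 (SE, adjusted p = 0.000708) at the 2-cell stage. Its fall in blastocysts, -1.24 ± 0.25 (SE, adjusted p = 0.000442), was -0.07 and not called with spike scaling. The Sec14 relative Sec14l1, a lipid-binding protein, changed at 95664_at by -1.22 ± 0.23 (SE, adjusted p = 0.000113) at the 8-cell stage.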

How the data were processed

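Gene expression was measured on 17 Affymetrix MG-U74Av2 arrays of total RNA that, per the labels, went through 2 rounds of in vitro transcription. The deposited values are 1 linear signal intensity per probe set and array. From the values, the authors had scaled each array, since the trimmed mean (2% cut from each tail) was 150.1 on all; which program made the values, and to what target it scaled them, is not given in the sources used here. No detection calls come with the table. Probe sets were named by the platform annotation, and only those with 1 gene symbol could be members.

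Signals were taken as log2(signal + 11), 11 being the rounded 25th percentile of all values. Of 12488 probe sets, 66 Affymetrix controls were left out and 8067 with a signal above 41.1 on at least 3 arrays were tested. limma 3.58.1 in R 4.3.3 (lmFit, eBayes with an intensity trend) fitted 5 stage means to all arrays with 12 residual degrees of freedom, and p-values were two-sided and adjusted by Benjamini and Hochberg over all tested probe sets within each comparison. The procedure was tested on simulated data. The 3 or 4 arrays per stage limit the precision.

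Genes were put into classes by hand from their known roles. Values per array are given for the members with up to 5 largest called rises and falls without overlap in each comparison, the brightest of most classes, and genes whose probe sets disagree. The members and lists were chosen with earlier results of these data known. Alternatives were other scalings, offsets, filters, variance models and probe set choices, the replicate number as a block, and each array left out in turn. Arrays that share a replicate number did not deviate together (31 pairs, correlations of -0.08 to 0.13), so the numbers were not taken as pairs. Suffixes such as _f, _s, _r and _i mark probe sets that may match several transcripts or were designed under relaxed rules. Upstream sequences came from RefSeq on GRCm38.p6.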

Additional observations from a re-analysis of the deposited data

Results flagged for a closer look

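In 4 cases a value lay apart from the other 3 arrays of its stage. Sec63 read 17.9 on oocyte array 4, against 23.7 to 24.1 on the others. Sec23b (98944_at) read 13.8 on oocyte array 2, against 65.4 to 76.8. Rab9 read 216.3 on 8-cell array 1, against 330.6 to 341.1. Rab5if read 850.9 on oocyte array 4, against 1333.1 to 1377.1. These are 4 of 66 stage groups of 4 arrays examined over 33 members, and chance sets apart about 1 in 20 groups. None of the changes described for these genes lost its call when the array was left out.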

How the results depend on the processing

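Scaling to the hybridisation spikes was the alternative that moved the counts most. It left 0 members higher and 50 lower at the 1-cell stage, 10 lower at the 2-cell stage, 4 higher at the 8-cell stage, 69 higher and 2 lower in blastocysts against 8-cell embryos, and 12 higher in blastocysts against oocytes, by limma. Of the other trafficking genes it called 0 higher (0 also at an unadjusted p below 0.05) and 74 lower at the 1-cell stage, 12 lower at the 2-cell stage, 6 higher and 48 lower at the 8-cell stage, 86 higher and 0 lower (again 0 unadjusted) in blastocysts against 8-cell embryos, and 12 higher in blastocysts against oocytes. Under it all probe sets split into 18 higher and 5379 lower at the 1-cell stage, 1900 and 806 at the 2-cell stage, 764 and 3442 at the 8-cell stage, 5370 and 149 in blastocysts against 8-cell embryos, and 1659 and 2836 against oocytes. Centring on the median gave 1614 and 2434 at the 2-cell stage and 2383 and 1935 at the 8-cell stage. Among called members, the sign turned with spike scaling in 20 of 41, 0 of 46, 3 of 53, 8 of 40 and 0 of 53 cases in the 5 comparisons, and in none with quantile normalisation or median centring.

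Of 50 member changes, the 5 largest rises and the 5 largest falls without overlap in each comparison, 9 lost their call with spike scaling, and no other alternative that gave a value ended or turned one. A stricter filter (signal above 152.5) left 18 of the other trafficking genes lower at the 8-cell stage and 4 lower in blastocysts against 8-cell embryos; fewer probe sets are tested under it. With 1 array left out, members called higher ranged from 18 to 27, 19 to 21, 19 to 22, 23 to 28 and 26 to 28 in the 5 comparisons, and members called lower from 14 to 17, 19 to 26, 29 to 32, 10 to 13 and 21 to 29. The other trafficking genes higher at the 1-cell stage ranged from 10 (without 1-cell array 2) to 17. Some calls of single members were lost with an array left out: 11 of 41, 10 of 46, 5 of 53, 10 of 40 and 9 of 53.

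With the replicate number as a block, members called higher were 25, 21, 20, 24 and 26 and lower 17, 25, 31, 11 and 25, and those 50 changes kept their call. The cause of these differences between settings was not tested. Low signals limit what can be said: 20 members were too dim to test, and folds of dim probe sets depend on the offset.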
